A study of Saccharomyces cerevisiae with 40 samples.

Results

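The genes described here build the wall of the budding yeast Saccharomyces cerevisiae or encode the mannoproteins that coat it. They are 41 of the 7125 features named in the binding tables of 5 transcription factors (TFs). They were chosen by gene name and function, but with earlier results of these data known. Of the 41 genes, 16 (39.0%) had at least 1 listed binding event of at least 1 TF, beside 1371 of all 7125 features (19.2%). The other 25 genes had none under any condition. Each of the 41 names is in every table and was found in the R64 reference annotation, 40 by symbol and MUC1, also called FLO11, as a synonym. An event is a position where reads of the precipitated TF pile up, and its binding ratio, log2(S/N), is the signal over the background noise on a log2 scale.

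The study measured binding with ChIP-exo, in which an exonuclease digests precipitated DNA up to the bound protein, for Ino2, Ino4, Hap1, Oaf1, and Pip2. Each TF carried a tandem affinity purification (TAP) tag at the C-terminal end of its own gene in strain CEN.PK 113-5D, and each tagged strain was grown in chemostats under 4 conditions. Et-lim was limited by ethanol, with 0.5% (w/v) ethanol as the carbon source, and Glu-lim by glucose, with 0.75% (w/v) glucose. Both gave respiratory growth. N-lim was limited by nitrogen, with 6% (w/v) glucose, and Ox,Glu-lim by oxygen and glucose, with 1% (w/v) glucose according to the labels and a lower glucose concentration according to the methods. Both gave fermentative growth. According to the methods, only the Ox,Glu-lim medium also held Tween and ergosterol. All groups share the parental strain and carry 1 tagged TF each, and no untagged strain or mock precipitation is used here. The 40 samples are 2 for each TF and condition, but the tables pool them into a single value per gene. No value below therefore has a replicate error, no difference was tested, and all comparisons are descriptions. The depth of the libraries is unknown here.

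The yeast wall is a mesh of β-glucan and chitin on which mannoproteins are anchored, many of them through the remains of a glycosylphosphatidylinositol (GPI) lipid anchor and others through direct linkage to glucan. Its composition changes with growth phase, carbon source, and oxygen, and several mannoproteins replace each other between aerobic and anaerobic growth. Ino2 and Ino4 are helix-loop-helix proteins that bind DNA together and are known for activating phospholipid synthesis genes. Hap1 is a zinc cluster protein that responds to heme, and Oaf1 and Pip2 are zinc cluster proteins that activate peroxisomal β-oxidation genes in the presence of oleate.

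The sequences at the events on which the results turn are given here to show which of them carry a recognizable site. They are read from the plus strand of R64, the build of the tables, from 20 bases before the first to 20 bases behind the last of the named events. Capitals mark the k-mer, the short sequence that the peak caller GEM assigned to an event, on either strand. The TIP1 stretch, chrII:373120-373354, holds the events of all 5 TFs. From left to right its capitals are the k-mers of Oaf1, Pip2, Hap1, and, last, of Ino2 and Ino4.
TIP1: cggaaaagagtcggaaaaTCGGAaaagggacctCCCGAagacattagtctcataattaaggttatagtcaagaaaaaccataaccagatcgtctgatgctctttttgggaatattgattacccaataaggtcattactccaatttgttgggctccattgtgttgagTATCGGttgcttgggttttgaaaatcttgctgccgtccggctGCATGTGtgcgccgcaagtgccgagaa
Windows are shown for 8 of the 9 KNH1 events, without that of Oaf1. The nearest to the gene, chrIV:366172-366213, holds those of Ino4 and of Ino2 in N-lim, the middle one, chrIV:366282-366347, those of Hap1 and of Ino2 in Ox,Glu-lim, and the farthest, chrIV:366504-366548, those of Ino2 in Et-lim and Glu-lim.
KNH1, nearest: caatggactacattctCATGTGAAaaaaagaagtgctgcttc
KNH1, middle: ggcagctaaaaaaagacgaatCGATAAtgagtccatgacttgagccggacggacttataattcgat
KNH1, farthest: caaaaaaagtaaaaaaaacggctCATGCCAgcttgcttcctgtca
Short windows follow for CHS1 (chrXIV:276067-276107), the Ino2 event of CWP1 (chrXI:260289-260329), DAN1 (chrX:710193-710234), UTR2 (chrV:77597-77656), GSC2 (chrVII:547401-547451), GAS1 (chrXIII:886566-886619), and the Ino2 event of CWP2 in Glu-lim and Ox,Glu-lim (chrXI:258512-258552). They show the range of k-mers given for Ino2 and Ino4, with the full consensus CACATGC in CWP1 and other letters elsewhere. The capitals do not belong to every event of a window. In UTR2 the events of both TFs in N-lim and Glu-lim had no k-mer. In GAS1 only that of Ino4 in Ox,Glu-lim had one. In GSC2 the capitals join GGCACAT, read on the other strand, and TGCCGAA, the k-mer of Ino4 in Ox,Glu-lim.
CHS1: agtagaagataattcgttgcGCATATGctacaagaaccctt
CWP1: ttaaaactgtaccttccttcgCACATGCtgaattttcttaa
DAN1: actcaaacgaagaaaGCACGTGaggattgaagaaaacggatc
UTR2: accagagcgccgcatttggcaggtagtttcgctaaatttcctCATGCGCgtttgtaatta
GSC2: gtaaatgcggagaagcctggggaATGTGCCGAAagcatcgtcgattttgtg
GAS1: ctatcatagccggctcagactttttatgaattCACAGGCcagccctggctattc
CWP2, far site: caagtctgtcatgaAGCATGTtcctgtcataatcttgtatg
Finally, CCW12 (chrXII:370634-370890), the remaining events of CWP2 (chrXI:258701-258930), and ECM33 (chrII:392608-392693) are shown because they were bound by 4 TFs with few or no k-mers. The ECM33 stretch leaves out the Hap1 event, whose k-mer is CCGAAA. The CCW12 and CWP2 stretches each hold 1 match to CGGNNNTAA, the Oaf1 consensus. Of genome stretches of their lengths, 6.94% and 6.22% hold one. The CWP2 stretch also holds 1 match to CCGNNNTA, the Pip2 consensus, which 16.1% of them hold. Neither holds CACATGC or CCGATA.
CCW12: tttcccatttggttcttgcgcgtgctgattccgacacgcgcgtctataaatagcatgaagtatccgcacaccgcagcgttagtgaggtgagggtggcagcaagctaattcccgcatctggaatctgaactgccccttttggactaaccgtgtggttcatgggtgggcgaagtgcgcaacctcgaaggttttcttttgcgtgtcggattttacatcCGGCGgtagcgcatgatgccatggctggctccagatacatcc
CWP2, main stretch: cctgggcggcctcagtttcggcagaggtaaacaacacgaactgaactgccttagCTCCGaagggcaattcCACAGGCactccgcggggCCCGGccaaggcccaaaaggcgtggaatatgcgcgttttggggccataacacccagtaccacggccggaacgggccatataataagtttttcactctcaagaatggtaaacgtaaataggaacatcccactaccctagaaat
ECM33: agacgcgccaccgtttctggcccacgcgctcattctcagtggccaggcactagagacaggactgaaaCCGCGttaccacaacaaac

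Ino2 was listed at 13 of the 41 genes (31.7%) in any condition, beside 11.7% of all features. Under the respiratory conditions it bound the same 12 genes in Et-lim and in Glu-lim, 29.3% of the 41 each time, beside 10.2% and 8.86% of all features. Under the fermentative conditions it bound 4 genes in N-lim (9.76%, beside 1.87%) and 7 in Ox,Glu-lim (17.1%, beside 3.47%). The gene missing from the respiratory conditions was DAN1. Ino4 was listed at 12 genes in any condition (29.3%, beside 9.46%), and all 12 were also Ino2 genes, as were 85.6% of all Ino4 features. It bound 2 genes in Et-lim (4.88%, beside 2.50%), 11 in Glu-lim (26.8%, beside 7.51%), 5 in N-lim (12.2%, beside 2.33%), and 10 in Ox,Glu-lim (24.4%, beside 6.82%). The low count of Ino4 in Et-lim stood in a list that was short as a whole, with 178 features, against 725 for Ino2 in the same condition.

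Hap1 was listed at 6 genes in any condition (14.6%, beside 6.65% of all features). It bound 2 genes in Et-lim (4.88%, beside 2.48%), 6 in Glu-lim (14.6%, beside 5.68%), 0 in N-lim (beside 0.730%), and 2 in Ox,Glu-lim (4.88%, beside 3.51%). Oaf1 was listed at 7 genes (17.1%, beside 6.34%), with 4 in Et-lim (9.76%, beside 4.01%), 4 in Glu-lim (9.76%, beside 3.44%), 3 in N-lim (7.32%, beside 2.30%), and 2 in Ox,Glu-lim (4.88%, beside 2.33%). All Hap1 genes were bound in Glu-lim, whereas no condition held all of the Oaf1 genes. Over all features, Glu-lim held 405 of the 474 Hap1 features, and the longest Oaf1 list, in Et-lim, 286 of 452. Pip2 was listed at 4 genes (9.76%, beside 3.30%), with 2 in Et-lim (4.88%, beside 1.59%), 0 in Glu-lim (beside 1.74%), 2 in N-lim (4.88%, beside 0.758%), and 0 in Ox,Glu-lim (beside 0.575%). The shares of Hap1, Oaf1, and Pip2 in a condition rest on 0 to 6 genes. The tables also name features that code for no protein, and among the 6006 names that R64 annotates as protein coding, 20.7% had an event of any TF.

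**Figure D1:**
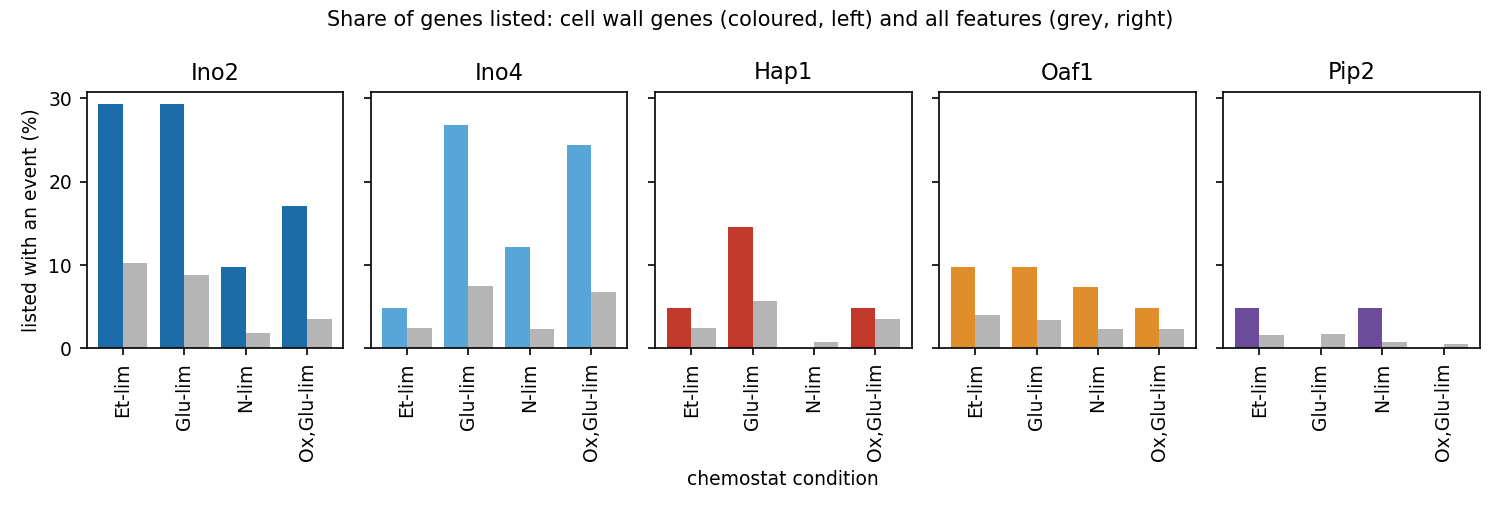
Percent of the 41 cell wall genes (coloured bars, left of each pair) and of all 7125 features (grey bars, right) listed with an event, for each TF and chemostat condition; the duplicates are pooled, so there are no error bars. The cell wall genes stand above all features for Ino2, Ino4, and Oaf1 in all 4 conditions, and no cell wall gene was listed for Hap1 in N-lim or for Pip2 in Glu-lim and Ox,Glu-lim.

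Of the 16 genes with an event, 8 encode structural mannoproteins. Of the 10 structural mannoproteins, 8 had an event: CCW12, CIS3, CWP1, CWP2, DAN1, ECM33, HSP150, and TIP1. Of the 6 glucan synthesis genes, 2 had one (GSC2 and KNH1), of the 11 glucan remodelling genes 3 (EXG1, GAS1, and UTR2), of the 3 chitin synthases 1 (CHS1), and of the 4 daughter separation genes 2 (DSE2 and EGT2). None of the 5 flocculins had an event, nor did MID2, a stress sensor of the plasma membrane, or PGA1, which takes part in GPI anchor mannosylation. Beside these counts, 19.2% of all features had an event. Each role holds only 2 to 11 genes, and differences between roles were not tested. HSP150 counts through 1 Pip2 event alone, which lies downstream of the gene. In all, 13 genes had events of at least 2 TFs (31.7%, beside 11% of all features), 4 had events of 4 TFs (9.76%, beside 1.84%), and TIP1 had events of all 5 (2.44%, beside 0.491%).

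**Figure D2:**
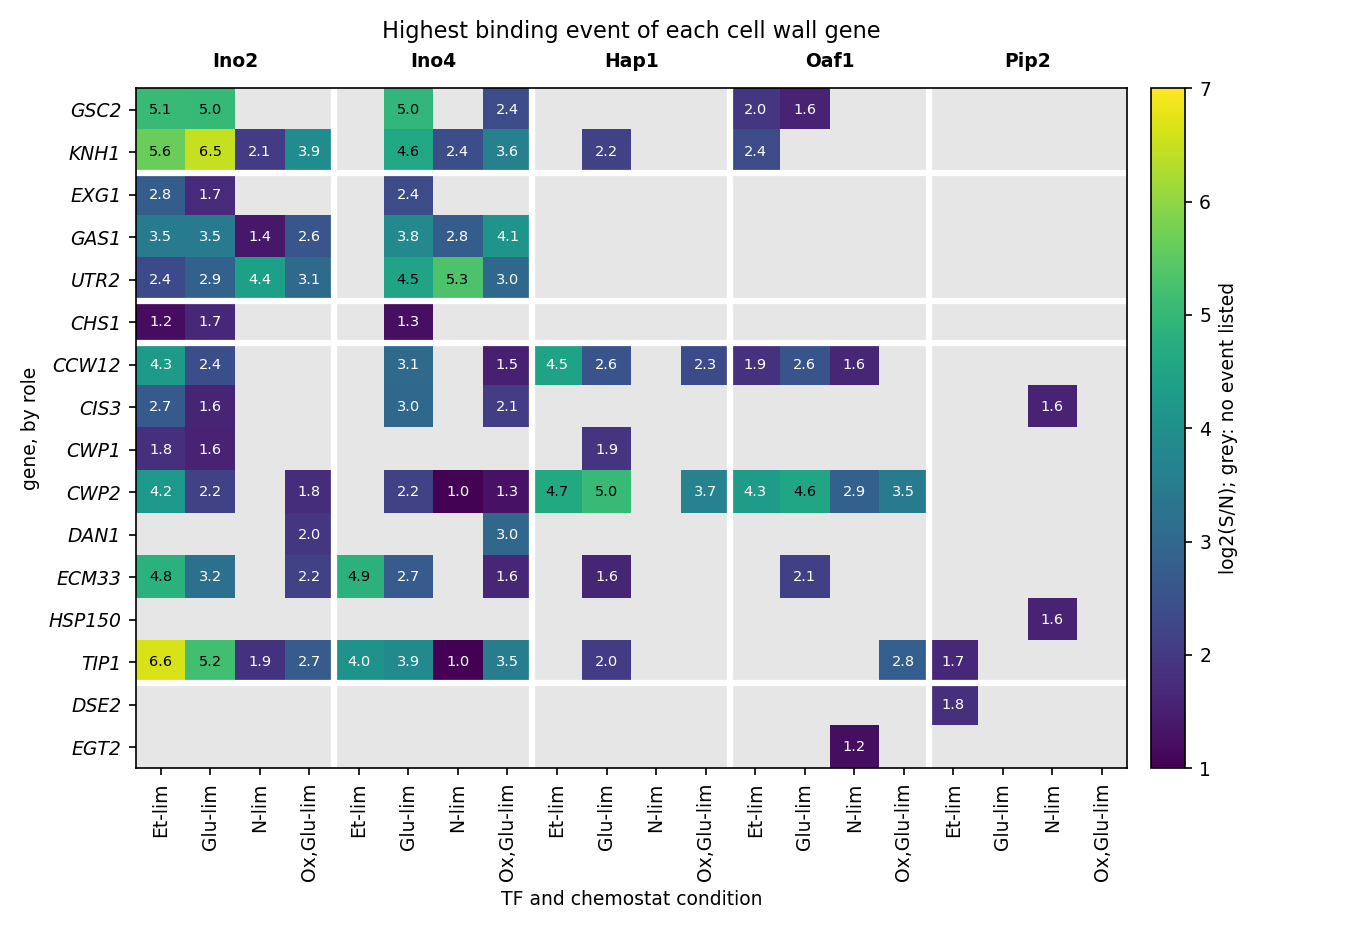
Binding ratio, log2(S/N), of the highest event of each of the 16 cell wall genes with an event (rows, grouped by role) for each TF and condition (columns); grey means that no event was listed, and each cell is 1 pooled value. TIP1 and KNH1 reach 6.63 and 6.48 for Ino2, UTR2 has its highest values in N-lim, and DAN1 has values in Ox,Glu-lim only.

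Among the glucan synthesis genes, KNH1, a homolog of KRE9 that takes part in β-1,6-glucan synthesis, was bound by 4 TFs. For Ino2 its log2(S/N) was 5.65 in Et-lim and 6.48 in Glu-lim, against 2.06 in N-lim and 3.92 in Ox,Glu-lim. The 2 respiratory values lay above both fermentative ones, and the value in Glu-lim was the 18th highest of the 631 features that Ino2 bound there. The event lay 651 and 655 bp upstream of the gene in Et-lim and Glu-lim, against 319 bp in N-lim and 454 bp in Ox,Glu-lim. Ino4 stayed at 319 or 320 bp and had 4.60 in Glu-lim, against 2.45 in N-lim and 3.62 in Ox,Glu-lim, with no event in Et-lim. Only in N-lim were the highest events of both TFs at 1 place, the nearest of the windows shown above, which carries CATGTGAA. Since a table keeps only the highest event of a gene, another listed position means that another event was the highest, and lower events elsewhere on the promoter are not seen. Hap1 had 2.16 in Glu-lim at a window with CGATAA, and Oaf1 had 2.38 in Et-lim.

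GSC2, also called FKS2, encodes the alternate catalytic subunit of β-1,3-glucan synthase, which yeast uses under stress and on carbon sources other than glucose. Ino2 had 5.06 in Et-lim and 5.01 in Glu-lim, and no event in N-lim or Ox,Glu-lim. The values of both respiratory conditions were thus close to each other. Ino4 had 4.98 in Glu-lim, against 2.39 in Ox,Glu-lim, and Oaf1 had 1.96 in Et-lim and 1.60 in Glu-lim. All of these events lay 783 to 854 bp upstream of GSC2 and were also listed for NAG1, a gene on the other strand whose start was nearer, at 111 to 182 bp. All but the Oaf1 event in Et-lim fell inside the annotated gene IMO32, which NAG1 overlaps, and which of these genes an event acts on was not tested. FKS1, the main glucan synthase subunit in growing cells, FKS3, KRE6, and KRE9 had no event.

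Among the remodelling enzymes, GAS1, a GPI-anchored β-1,3-glucanosyltransferase that elongates glucan chains, was bound by Ino2 in all 4 conditions, with 3.47 in Et-lim and 3.46 in Glu-lim, against 1.40 in N-lim and 2.61 in Ox,Glu-lim. For Ino4 the order was another, with 3.82 in Glu-lim, against 2.76 in N-lim and 4.10 in Ox,Glu-lim, and no event in Et-lim. All 7 events lay within 13 bp of each other, 404 to 417 bp upstream. The GAS1 window has no CATG, the central 4 bases of the Ino2 and Ino4 consensus, and its k-mer, given for Ino4 in Ox,Glu-lim only, is CACAGGC. UTR2 (CRH2), which links chitin to glucan, had its highest values in a fermentative condition. Ino2 had 2.35 in Et-lim and 2.87 in Glu-lim, against 4.41 in N-lim and 3.08 in Ox,Glu-lim. Ino4 had 4.51 in Glu-lim, against 5.34 in N-lim and 3.03 in Ox,Glu-lim. For both TFs N-lim was the highest of the listed conditions, and there UTR2 was 16th of 133 features for Ino2 and 19th of 166 for Ino4. EXG1, the major exo-1,3-β-glucanase, had 2.76 in Et-lim and 1.75 in Glu-lim for Ino2, and 2.40 in Glu-lim for Ino4. The Ino2 events lay 494 bp upstream in Et-lim and 724 bp in Glu-lim, and all 3 were also listed for YLR299C-A, whose start was nearer. The other 8 genes of this group had no event: BGL2, EXG2, CRH1, GAS3, and GAS5, and CRR1, GAS2, and GAS4, which act in the spore wall.

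CHS1, the chitin synthase that repairs the wall after cell separation, had low values at 1 fixed position, 415 bp upstream, on GCATATG. Ino2 had 1.19 in Et-lim and 1.69 in Glu-lim, and Ino4 had 1.26 in Glu-lim. CHS2, which makes the septum, and CHS3, which makes most of the chitin of the wall, had no event.

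Of the mannoproteins, TIP1, a GPI-anchored protein known for its induction in the cold, was bound by every TF. For Ino2 it had 6.63 in Et-lim and 5.19 in Glu-lim, against 1.87 in N-lim and 2.72 in Ox,Glu-lim. For Ino4 it had 4.05 in Et-lim and 3.87 in Glu-lim, against 1.02 in N-lim and 3.53 in Ox,Glu-lim. N-lim was thus the lowest condition for both TFs, and the Ino4 value there was the last of 166 on the list. All 8 events lay at 598 to 600 bp upstream, on the full consensus CACATGC. The other TFs were each listed in 1 condition. Hap1 had 2.04 in Glu-lim at 555 bp, on the letters CCGATA, Oaf1 had 2.80 in Ox,Glu-lim at 406 bp, and Pip2 had 1.67 in Et-lim at 420 bp, the last also listed for BAP2, which starts farther away. The stretch shown above holds 1 match to CACATGC and 1 to CCGATA, which 1.63% and 6.26% of all non-overlapping genome stretches of its length of 235 bases hold, and no match to CGGNNNTAA or CCGNNNTA, which 6.37% and 16.4% of them hold.

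CWP2, a small GPI mannoprotein and one of the major constituents of the wall, was bound by 4 TFs and had the highest Hap1 and Oaf1 values among the 41. Hap1 had 4.65 in Et-lim and 5.04 in Glu-lim, against 3.67 in Ox,Glu-lim and no event in N-lim. Oaf1 had 4.31 in Et-lim and 4.56 in Glu-lim, against 2.87 in N-lim and 3.49 in Ox,Glu-lim. For both, the 2 respiratory values exceeded the fermentative ones, and CWP2 was the only one of the 41 with Oaf1 events in all 4 conditions. Ino2 had 4.19 in Et-lim and 2.16 in Glu-lim, against 1.79 in Ox,Glu-lim. The event in Et-lim lay 492 bp upstream and the other 2 at 721 bp, on AGCATGT. Ino4 had 2.17 in Glu-lim, against 1.04 in N-lim and 1.29 in Ox,Glu-lim. The Hap1 events spread over 166 bp and those of Oaf1 over 179 bp, and 8 of the 11 events in the main stretch had no k-mer. Each event fell inside YKL097C, an open reading frame annotated upstream of CWP2.

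CCW12, another major GPI mannoprotein, was also bound by 4 TFs. Hap1 had 4.47 in Et-lim and 2.57 in Glu-lim, against 2.34 in Ox,Glu-lim, all 695 to 697 bp upstream. Ino2 had 4.27 in Et-lim and 2.45 in Glu-lim and no event under the fermentative conditions, and Ino4 had 3.06 in Glu-lim, against 1.52 in Ox,Glu-lim. The Ino2 and Ino4 events lay at 557 to 563 bp, closer to the gene than those of Hap1, and were nearer to the start of YLR112W than to CCW12. Oaf1 had 1.86 in Et-lim and 2.57 in Glu-lim, against 1.65 in N-lim, at 697 to 773 bp. Of the 10 events, only that of Oaf1 in Glu-lim had a k-mer. The Hap1 and Oaf1 events were also listed for HOG1, the kinase of the osmotic stress pathway, and 1 of the 6, that of Oaf1 in Et-lim, was nearer to HOG1.

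ECM33, a GPI protein needed for wall integrity, was the only gene besides TIP1 with an Ino4 event in Et-lim. Ino2 had 4.84 in Et-lim and 3.23 in Glu-lim, against 2.17 in Ox,Glu-lim. Ino4 had 4.87 in Et-lim and 2.71 in Glu-lim, against 1.65 in Ox,Glu-lim. Both TFs thus had the same order of conditions, and their 6 events lay 487 to 495 bp upstream. Hap1 had 1.63 and Oaf1 2.14, each in Glu-lim only. All 8 events were also listed for SLM4, on the other strand, which was nearer to all but that of Hap1.

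CIS3, a mannoprotein with internal repeats that is linked directly to glucan, had 2.69 in Et-lim and 1.61 in Glu-lim for Ino2, and for Ino4 3.04 in Glu-lim, against 2.08 in Ox,Glu-lim. The 4 events lay 342 to 349 bp upstream and had no k-mer. In N-lim, Pip2 had 1 event with 1.58 that was listed for both CIS3 and HSP150, a related protein of the same family. The event lies between the 3′ ends of these 2 convergent genes, downstream of each, 169 bp behind HSP150. CWP1 had 1.81 in Et-lim and 1.60 in Glu-lim for Ino2, 823 bp upstream on CACATGC, and 1.92 in Glu-lim for Hap1, 341 bp upstream. It was the only Ino2 gene of the 41 without an Ino4 event.

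DAN1, a mannoprotein of anaerobic cells, was listed in Ox,Glu-lim only. Ino2 had 1.96 and Ino4 2.97, at 507 and 508 bp upstream, on CACGTGC. It was the only one of the 41 that both TFs bound in a fermentative condition and in no respiratory one. Its relative DAN4 and the inner-layer protein CCW14 had no event.

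The daughter separation genes had 1 event each at most. DSE2, a daughter-specific glucanase-like protein, had 1.84 for Pip2 in Et-lim, 610 bp upstream of its start. The same event was listed for CHS7, an export factor of the chitin synthase Chs3, from whose 3′ end it lay 413 bp. EGT2, a GPI protein expressed as cells separate, had 1.21 for Oaf1 in N-lim, 928 bp upstream and inside MDJ2. DSE1 and DSE4 had no event. The flocculins FLO1, FLO5, FLO9, FLO10, and MUC1 mediate adhesion. FLO1, FLO5, and FLO9 are near-identical in parts, so that reads there may map to several places, and the lack of an event at them is uncertain. The tagged strain is also not the strain of the reference genome.

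Ino2 and Ino4 shared 24 pairs of entries, that is, an event of each for the same gene under the same condition. In 19 of them (79.2%) the events lay within 20 bp, beside 80.2% of the 923 pairs of all features. The pairs farther apart were at KNH1, CWP2, and EXG1. In Glu-lim both bound 11 of the genes, and the median difference, Ino2 minus Ino4, was -0.00463, beside -0.17 over all features. In Et-lim 2 of the 12 Ino2 genes (16.7%) were also Ino4 genes, beside 23.6% of the Ino2 features. Ino2 and Hap1 had 9 such pairs and none within 20 bp, beside 11.7% of 367 pairs, with a median gap of 149 bp. Ino2 and Oaf1 had 1 of 10 within 20 bp, beside 12.1%, and Ino4 had 2 of 7 with Hap1, beside 12.4%, and 2 of 7 with Oaf1, beside 12.0%. None of the 6 pairs of Hap1 and Oaf1, at CCW12, CWP2, and ECM33, lay within 20 bp, beside 23.7% of 279 pairs. Across conditions, the Oaf1 event of CCW12 in N-lim lay at the position of its Hap1 event in Et-lim, 697 bp upstream. All of these gaps are between highest events, so a lower event at a shared place is not seen. The genes bound by both Hap1 and Oaf1, in 1 or more conditions each, were CCW12, CWP2, ECM33, KNH1, and TIP1.

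**Figure D3:**
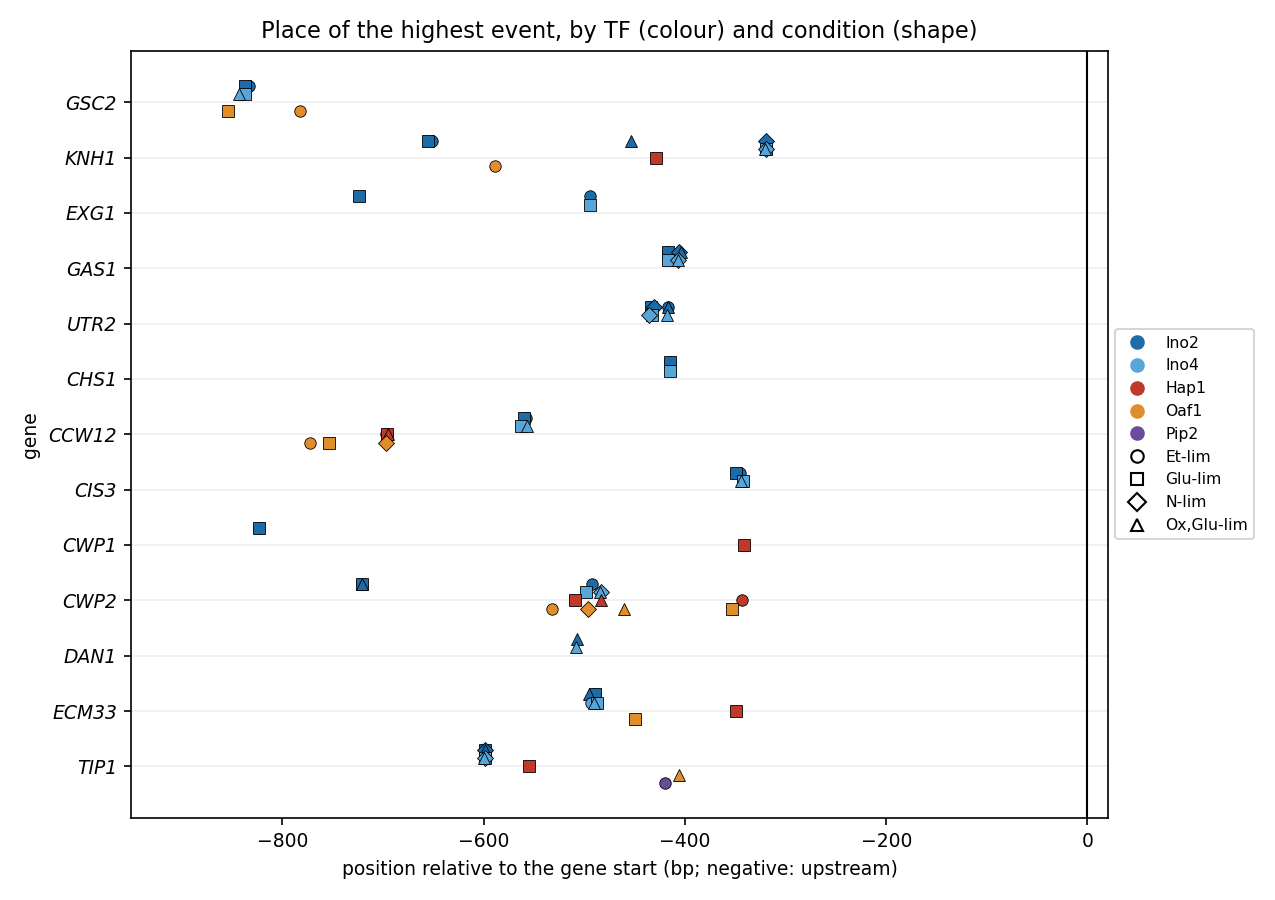
Position of the highest event relative to the start of the gene (bp, negative is upstream) for the 13 cell wall genes with at least 2 upstream entries; colour gives the TF and shape the condition, and each point is 1 pooled event. Ino2 and Ino4 overlap at TIP1, GAS1, CHS1, and DAN1, whereas the Ino2 events of KNH1 lie 319, 454, and 651 to 655 bp upstream.

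Of the 90 entries, 88 were upstream of their gene, with a median distance of 492.5 bp and a range over all entries of 169 to 928 bp, beside a median of 451 bp for the 5178 entries of all features. Another gene shared the event in 33 entries (36.7%), beside 60.7% over all features. Within 20 bp of the event, 6 of the 35 Ino2 events (17.1%) and 4 of the 28 Ino4 events (14.3%) held CACATGC on either strand, beside 18.5% and 22.9% of the events of all features and 0.255% of all genome windows of the same 41 bases. The 6 Ino2 events are those of TIP1 and CWP1, and the 4 of Ino4 those of TIP1. The central CATG, chosen after the values were seen, lay in 45.7% of the Ino2 and 28.6% of the Ino4 windows, beside 58.1% and 56.4% over all features and 11.4% of genome windows. For Hap1, 1 of 10 windows held CCGATA (beside 27.4% of events and 1.00% of genome windows) and 0 held the longer Hap1 consensus with a CCG at either end (beside 2.72% and 0.0292%). For Oaf1, 2 of 13 held CGGNNNTAA (15.4%, beside 17.1% and 0.953%), those of CCW12 in Glu-lim and CWP2 in N-lim. Within 50 bases on either side 5 of 13 did (38.5%, beside 28.1% of events and 2.64% of genome windows). For Pip2, 0 of 3 held CCGNNNTA (beside 8.96% and 2.63%). The absence of these letters says only that they are not in the window.

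A k-mer was missing in 42 of the 90 entries (46.7%), beside 35.5% over all features. For Ino2 it was missing in 18 of 35 entries (51.4%), beside 27.4%. Its 18 events without a k-mer had a median log2(S/N) of 3.34 and a median GC content of 53.7% in the 41-base window, against 2.06 and 39.0% for its 17 events with one. Over all features the medians for Ino2 were 2.64 and 53.7% without a k-mer, against 2.22 and 46.3% with one. For Ino4 the cell wall genes went the other way in the ratio, with 2.73 without a k-mer, against 3.28 with one, while all features had 3.09, against 2.53. For Hap1 the medians of the cell wall genes were 4.07 without a k-mer, against 1.98 with one, while all features had 3.58, against 2.18. For Oaf1 they were 3.09, against 2.38, while all features had 3.71, against 2.42. Without a k-mer, the median GC content at the cell wall genes was 56.1% for Ino4, against 52.4% with one. It was 58.5% for Hap1, against 45.1%, and 58.5% for Oaf1, against 56.1%. Over all features it was 48.8%, against 46.3%, for Ino4, 51.2%, against 48.8%, for Hap1, and 53.7%, against 56.1%, for Oaf1. At the cell wall genes these medians rest on 14 events without and 14 with a k-mer for Ino4. They rest on 6 and 4 for Hap1, and on 4 and 9 for Oaf1. An event counts once per condition, so nearly the same window can enter a median several times, as for GAS1 and Ino2. The part of base composition in the binding ratios was not tested.

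The median log2(S/N) of the cell wall genes stood above that of all features for Ino2 under respiratory conditions, at 3.83 in Et-lim, beside 2.34, and 2.66 in Glu-lim, beside 2.22. It was 1.97 in N-lim, beside 2.71, and 2.61 in Ox,Glu-lim, beside 2.44. For Ino4 it was 4.46 in Et-lim, beside 4.68, 3.06 in Glu-lim, beside 2.50, 2.45 in N-lim, beside 2.98, and 2.68 in Ox,Glu-lim, beside 2.24. Only in Glu-lim and Ox,Glu-lim were the medians of both Ino2 and Ino4 above those of all features. Hap1 had 4.56 in Et-lim, beside 3.54, 2.10 in Glu-lim, beside 2.52, and 3.00 in Ox,Glu-lim, beside 3.01. Oaf1 had lower medians than all features in Et-lim, 2.17 beside 2.75, in Glu-lim, 2.35 beside 2.91, and in N-lim, 1.65 beside 2.63, and a higher one in Ox,Glu-lim, 3.15 beside 2.58. The Pip2 medians were 1.76 in Et-lim, beside 2.74, and 1.58 in N-lim, beside 2.03. Each of these medians rests on 2 to 12 genes.

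To compare respiration with fermentation, the mean of N-lim and Ox,Glu-lim was subtracted from the mean of Et-lim and Glu-lim for each gene, with a condition without an event set to 1, the limit of the tables. The sign of a gene listed only under respiration, or only under fermentation, is therefore fixed by the listing itself. This holds for all features as well. For Ino2, 11 of 13 genes were higher under respiration, with a median difference of 1.46, beside 0.70 over all 833 Ino2 features, 93.3% of which were higher. The differences ranged from -1.13 at UTR2 to 4.04 at GSC2, followed by TIP1 with 3.61 and KNH1 with 3.07. CCW12, CHS1, CIS3, CWP1, EXG1, and GSC2 had no Ino2 event under fermentation, and DAN1 none under respiration, so their signs were fixed. For Ino4, 8 of 12 genes were higher (66.7%, beside 62.2%) and the median was 0.45, beside 0.24. The other 4 were UTR2 with -1.43, GAS1 with -1.02, DAN1 with -0.99, and KNH1 with -0.23. Of these, UTR2 and DAN1 were also lower for Ino2, whereas GAS1 and KNH1 were higher for Ino2 by 1.46 and 3.07. The missing Et-lim entries of Ino4 enter these means as 1. With Glu-lim alone as the respiratory condition, 11 of the 12 genes were higher for Ino4. UTR2, GAS1, and KNH1 then exceeded the fermentative mean by 0.33, 0.39, and 1.57, and DAN1 stayed at -0.99. All 6 Hap1 genes were higher, beside 74.9% of the Hap1 features, with a median of 0.55, beside 0.44. Of these genes, CWP1, ECM33, KNH1, and TIP1 were listed for Hap1 in Glu-lim only. For Oaf1, 5 of 7 genes were higher (71.4%, beside 73.0%), with a median of 0.69, beside 0.53. ECM33, GSC2, and KNH1 among them had no Oaf1 event under fermentation. The 2 lower ones for Oaf1 were TIP1 with -0.90 and EGT2 with -0.11, both listed under fermentation only. For Pip2, 2 of 4 genes were higher (beside 77.0%) and the median was 0.02, beside 0.48.

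**Figure D4:**
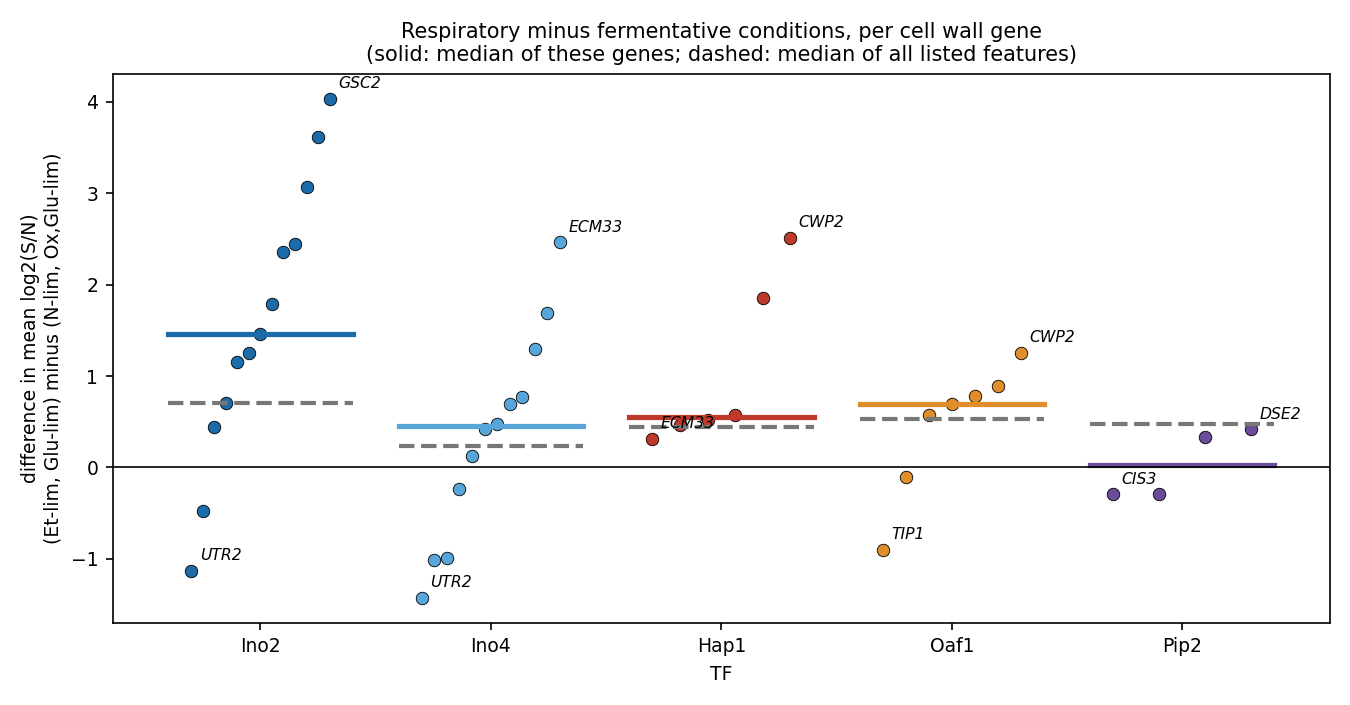
Difference in mean log2(S/N), respiratory (Et-lim, Glu-lim) minus fermentative (N-lim, Ox,Glu-lim) conditions, for each cell wall gene listed for a TF (points); a condition without an event counts as 1, the solid line is the median of the cell wall genes, and the dashed line the median of all listed features. The Ino2 points range from -1.13 at UTR2 to 4.04 at GSC2, which had no Ino2 event under fermentation, and UTR2 is the lowest for both Ino2 and Ino4.

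Further genes of wall construction, in 5 lists that do not contain any of the 41, were examined in the same way. Of the 106 of them that the tables name, 29 (27.4%) had an event of any TF, beside 19.2% of all features. The list of other wall proteins and enzymes had 14 of 34, the list of mannan synthesis and O-mannosylation 8 of 28, that of wall integrity signalling 4 of 20, that of β-1,6-glucan and glucan-related factors of the endoplasmic reticulum 2 of 10, and that of chitin synthesis accessories 1 of 14, the CHS7 entry that DSE2 shares. In the mannan list, MNN1, an α-1,3-mannosyltransferase, was bound by Ino2 and Ino4 in all 4 conditions, with 5.68 in Et-lim and 5.48 in Glu-lim for Ino2, against 2.87 in N-lim and 3.77 in Ox,Glu-lim. For Ino4 it had 5.16 in Et-lim and 5.15 in Glu-lim, against 3.88 in N-lim and 5.37 in Ox,Glu-lim, so that the highest value of Ino4 was in a fermentative condition. ANP1, a subunit of a mannan polymerase complex, had 7.39 in Et-lim and 8.90 in Glu-lim for Hap1, against 5.77 in N-lim and 6.94 in Ox,Glu-lim, at events shared with HYP2. HOC1, a subunit of the same kind of complex, had 6.29 in Et-lim and 6.04 in Glu-lim for Ino2, against 4.80 in N-lim, and for Ino4 5.13 in Et-lim and 6.21 in Glu-lim, against 5.55 in N-lim and 5.78 in Ox,Glu-lim, at events shared with OPI3, a phospholipid synthesis gene. Among the other wall proteins, SED1, a stress-induced GPI protein, reached 4.15 for Oaf1 in Glu-lim, UTH1 4.30 for Hap1 in Ox,Glu-lim, and NCA3 2.98 for Hap1 in Et-lim. In the signalling list, the sensor-like protein MTL1 had 3.81 for Oaf1 in Glu-lim, WSC4 3.56 for Pip2 in Et-lim, at an event downstream of the gene, and ROM2, an exchange factor for Rho1, 2.59 for Ino4 in Glu-lim. In the glucan list, ROT2 had 1.94 for Hap1 in Glu-lim, and SKN1, a homolog of KRE6, had an Ino2 event in Et-lim and Glu-lim, with 1.38 in Et-lim. Other genes shared some of these events: YKR040C that of UTH1, ASF1 that of NCA3, RIM101 that of WSC4, ARC18 that of ROM2, and YBR230W-A that of ROT2.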

How the data were processed

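The authors grew 2 samples for each TF and condition (40 in all), aligned the ChIP-exo reads with Bowtie2 to R64-2-1 of strain S288C, removed low-quality reads, trimmed 70 bases from the 3′ end, and called events with GEM over the duplicates. The deposited log2 values are the binding ratio, the signal over a noise level averaged over each replicate, for events with log2(S/N) above 1. The Pip2 table, whose deposited lines are shorter where values are missing, was read as a score on the same scale. The other deposited columns, by the authors, are the event position, the k-mer, its strand, and the distance to the gene, assigned with BEDTools within 1200 bp. Per gene and condition only the highest event is kept. The labels also name SAMtools; tool versions are not given in the sources used here.

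The 5 tables hold 7125 named features each and all of their per-sample columns are pooled over the duplicates, so that neither a spread nor a test could be had, and the depth is unknown. The build was checked by distance: of 4847 entries whose gene has coordinates in the R64 reference, 4840 gave the listed distance within 1 bp. The 41 genes, their roles, the 5 further lists, and the comparisons were chosen with earlier results of these data known. Values are given in every condition for genes with events of at least 2 TFs, with events in all 4 conditions for 1 TF, or with log2(S/N) of at least 4. The top 3 genes of each further list by highest value are named, with some of their values. Other genes were named after their values were seen. Windows of 41 bases were searched for the consensus motifs of the study on both strands, events within 20 bp were called 1 place, and a condition without an event counted as 1 in the respiratory minus fermentative difference. Alternatives were thresholds of 1.5 and 2, distances up to 600 bp, the nearest gene only, upstream events only, other windows, gaps, and floors, and leaving out Et-lim. The limit of protein-coding names and the central CATG were added after the data were seen. The motif search was tested on simulated sequences. The check of the difference was arithmetic alone, without the floor, so it says nothing about the differences reported here. Python 3.11.15 and NumPy 2.4.6 were used for the values, SciPy 1.17.1 for binomial intervals, and matplotlib 3.10.9 for the plots.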

Additional observations from a re-analysis of the deposited data

How the results depend on the processing

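Of 202 alternative values for 65 reported values, 157 stayed within 1.5 times a count, within 0.5 on the log2 scale, or within the 95% binomial interval of a share; 44 moved further and 1 turned its sign. The others are given here. With log2(S/N) above 1.5, the count of the 41 genes was 3 for Ino4 in N-lim, and the Oaf1 median in N-lim was 2.26. Above 2, it was 0 for Pip2 in all, in Et-lim, and in N-lim, 2 for Ino2 in N-lim, 3 for Ino4 in N-lim, 2 for Oaf1 in Et-lim, and 1 for Oaf1 in N-lim. With distances up to 600 bp, it was 4 for Oaf1 in all, 2 in Et-lim, 2 in Glu-lim, and 1 in N-lim; 7 for Ino2 in Glu-lim; 1 for Hap1 in Et-lim and in Ox,Glu-lim; and 1 for Pip2 in Et-lim. With the nearest gene only, it was 1 in Et-lim and 7 in Glu-lim for Ino4, 2 in Et-lim and 2 in Glu-lim for Oaf1, and 2 in all, 1 in Et-lim, and 1 in N-lim for Pip2, and the medians were 3.08 for Ino2 in Et-lim, 3.82 for Ino4 in Glu-lim, and 3.35 in Et-lim and 3.56 in Glu-lim for Oaf1. With upstream events only, Pip2 had 2 in all and 0 in N-lim. The lists of all features also shrank at these settings. In any condition, the share for Oaf1 up to 600 bp was 9.76%, beside 4.24% of all features. For Pip2 it was 0.00% above 2, beside 1.89%, 4.88% with the nearest gene only, beside 2.19%, and 4.88% with upstream events only, beside 1.78%. Shares of all features in single conditions were not computed at these settings.

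The median respiratory minus fermentative difference of Ino2 was 2.26 with an unlisted condition set to 0, 2.27 over the 4 genes listed in all conditions, and 0.77 without Et-lim. For Ino4 it was 1.69 for the 1 gene listed in all conditions and 1.39 without Et-lim, for Hap1 1.05 with the floor of 0, and for Oaf1 1.25 for the 1 gene listed in all conditions. For Pip2 it was -0.15 without Et-lim, against 0.02 with it. Pairs of events within 10 bp were 0 for Ino2 and Oaf1, 1 for Ino4 and Hap1, and 0 for Ino4 and Oaf1; within 50 bp they were 1 for Ino2 and Hap1, 4 for Ino2 and Oaf1, 4 for Ino4 and Oaf1, and 1 for Hap1 and Oaf1. The cause of the moved medians and differences was not tested. Against the protein-coding names, added after the data were seen, the shares of all features were 12.8% for Ino2, 10.1% for Ino4, 7.41% for Hap1, 6.93% for Oaf1, and 3.45% for Pip2.

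No paired analysis was possible because the duplicates are pooled in the tables, and leaving out a replicate could not be done for the same reason. Low binding ratios, such as 1.02 for TIP1 and Ino4 in N-lim, lie at the limit of the tables, where a gene without an event cannot be told from one just below it.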
